A study of Homo sapiens with 6 samples.

Results

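The genes described here encode enzymes that modify collagen and elastin: the 5 lysyl oxidases LOX, LOXL1, LOXL2, LOXL3 and LOXL4, the 3 lysyl hydroxylases PLOD1, PLOD2 and PLOD3, and P4HA1 and P4HA2, alpha subunits of prolyl 4-hydroxylase. They were taken by gene name from a table of 58825 genes, and all 10 were found. They were selected on their family, with their fold changes between these hairpins in view, so their levels and fold changes are given as a description, without p-values. Messenger RNA was sequenced from the bladder carcinoma cell line T24, grown in medium with fetal bovine serum. 3 libraries carried a hairpin against DLGAP5 (shDLGAP5-1) and 3 carried a control hairpin (shNC-1, genotype given as WT). DLGAP5 encodes a protein of the mitotic spindle, and the study concerns a circuit of DLGAP5 and E2F1 in bladder cancer. Each group is 1 hairpin in 1 cell line, and a second hairpin or a rescue was not analysed here.

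Collagen chains are modified inside the endoplasmic reticulum and cross-linked outside the cell. Prolyl 4-hydroxylase, made of P4HA alpha subunits and the beta subunit P4HB, hydroxylates prolines and so stabilises the triple helix. The PLOD enzymes hydroxylate lysines; PLOD2 acts on the telopeptides, the chain ends, and PLOD3 can also add sugars to hydroxylysine. These enzymes need iron, ascorbate, oxygen and 2-oxoglutarate. Lysyl oxidases are secreted copper enzymes that oxidise lysines and hydroxylysines of collagen and elastin, which then form cross-links. LOX, PLOD2 and P4HA1 are known to be induced by hypoxia in many cell types.

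The regions just upstream of 4 of these genes are shown. Among the genes abundant enough to be tested, LOXL4, PLOD2 and PLOD3 differed most between the hairpins, and LOX is the founding member of its family. Each region is 250 bases long, ends at the base before the RefSeq start of the gene (GRCh38.p14, all on the minus strand) and runs 5′ to 3′. Capitals mark the core of the hypoxia response element, ACGTG, on either strand.
LOXL4, chr10:98268195-98268444: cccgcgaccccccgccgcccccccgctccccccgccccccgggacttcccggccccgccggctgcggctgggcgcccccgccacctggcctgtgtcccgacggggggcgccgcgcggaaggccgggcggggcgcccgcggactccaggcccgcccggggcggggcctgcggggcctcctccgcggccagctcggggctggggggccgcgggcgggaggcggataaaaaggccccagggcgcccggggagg
LOX, chr5:122078260-122078509: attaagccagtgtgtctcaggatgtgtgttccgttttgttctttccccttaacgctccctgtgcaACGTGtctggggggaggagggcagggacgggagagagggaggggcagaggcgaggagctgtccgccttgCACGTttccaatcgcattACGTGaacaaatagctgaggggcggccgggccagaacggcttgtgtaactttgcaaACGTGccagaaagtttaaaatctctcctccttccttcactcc
PLOD2, chr3:146161185-146161434: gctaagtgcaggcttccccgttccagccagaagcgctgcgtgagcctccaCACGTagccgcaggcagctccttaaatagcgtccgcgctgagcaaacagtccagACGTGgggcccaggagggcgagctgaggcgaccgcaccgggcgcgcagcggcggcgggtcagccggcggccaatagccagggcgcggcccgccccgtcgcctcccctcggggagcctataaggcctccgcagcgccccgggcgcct
PLOD3, chr7:101217582-101217831: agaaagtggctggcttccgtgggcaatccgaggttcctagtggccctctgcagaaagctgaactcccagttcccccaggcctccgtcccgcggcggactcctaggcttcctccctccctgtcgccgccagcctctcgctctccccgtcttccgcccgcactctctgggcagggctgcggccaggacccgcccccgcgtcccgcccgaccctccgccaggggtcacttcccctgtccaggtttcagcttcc

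The LOX region held 4 matches to the hypoxia core, that of PLOD2 held 2 and that of P4HA1 held 1. LOXL4, PLOD1, PLOD3, LOXL1, LOXL3 and P4HA2 had 0 matches, where 18.5% of 35116 promoters of the same length held at least 1. 9 of the 10 genes were matched to RefSeq, and where a gene had several starts the outermost was used. The E2F-like motif TTTNNCGC was in 5.9% of all promoters and in 0 of these 9. The TATA box TATAAA, in 10.7% of all promoters, had 1 match, upstream of P4HA1. All motifs were sought on either strand. GC boxes (GGGCGG), held by 42.6% of promoters, numbered 6 upstream of LOXL4, 4 upstream of PLOD1, 3 upstream of PLOD3 and 1 each upstream of LOX and PLOD2; motif matches may overlap. The LOXL4 region held 86.4% G and C, at the 99.8th percentile of all promoters, whose median was 58.0%. A match here is a string of letters and not a measured binding site. The windows of PLOD2 and PLOD3 lie inside the gene spans of the deposited table and that of LOX lies partly inside, since the table's gene starts are farther out than those of RefSeq.

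Depth, estimated from the smallest repeated step of the values, was about 13700000 to 18300000 fragments per shDLGAP5-1 library and 21600000 to 27500000 per shNC-1 library, so at equal FPKM a gene rests on fewer fragments in shDLGAP5-1. DLGAP5 itself stood at 5.03, 4 and 7.51 FPKM (fragments per kilobase of transcript, scaled to library depth) in shDLGAP5-1 replicates 1 to 3, against 32.98, 32.7 and 29.68 FPKM in shNC-1 replicates 1 to 3, a log2 fold change of -2.37 (limma adjusted p = 0.000894). A minimum of 1 FPKM in 3 or more libraries left 12714 genes, of which 24.8% passed an adjusted p of 0.05 between the hairpins, 15.3% higher and 9.52% lower in shDLGAP5-1. Of these calls 61.6% were higher, but the share was 48.1% when each library was given an equal sum, 42.3% after scaling by median ratios, 50.8% after quantile normalization and 50.1% after the trend with length was taken out. Scaling by median ratios shifted the all-gene median by -0.10 on the log2 scale. Of 15 markers of bladder epithelium and carcinoma, KRT7, KRT8, KRT18 and VIM were abundant in every library (VIM 1134 to 1630 FPKM in shDLGAP5-1 and 1313 to 1434 FPKM in shNC-1). KRT5, EPCAM, CDH1, GATA3 and the uroplakins UPK1A, UPK1B, UPK2 and UPK3A were low or listed at 0, the highest values being 2.28 FPKM for UPK3A in shDLGAP5-1 replicate 3 and 3.95 FPKM for KRT5 in shNC-1 replicate 2. PPARG averaged 11.6 FPKM in shDLGAP5-1 and 10.9 FPKM in shNC-1, and CDH2 33.2 and 35.9 FPKM. KRT19 averaged 10.7 FPKM in shDLGAP5-1 and 18.9 FPKM in shNC-1 (limma adjusted p = 0.00438). It was the 1 marker called of 8 tested, or 12.5%, where 24.8% of all tested genes passed. White blood cell transcripts marked shDLGAP5-1 replicate 3. The summed level of 12 leukocyte markers was 1738 FPKM there, against 353.8 and 490.1 FPKM in the other shDLGAP5-1 libraries and 463.6 to 511.9 FPKM in shNC-1. Outside that library most of the sum was SRGN, at 473 and 345 FPKM in shDLGAP5-1 replicates 1 and 2 and 450.2 to 480.5 FPKM in shNC-1. In shDLGAP5-1 replicate 3 SRGN was at 1013 FPKM, LYZ at 686 FPKM and PTPRC at 7.03 FPKM. CD14, CD3E and CD79A there stayed within the range of the other shDLGAP5-1 libraries. LYZ was also at 11.9 FPKM in shDLGAP5-1 replicate 1 and 21.1 FPKM in shNC-1 replicate 3. Whether replicates are separate cultures is not in the labels, and the p-values cover the spread of these libraries alone, which may be technical. In bulk RNA, fewer cells of a type and less RNA per cell cannot be told apart.

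In shDLGAP5-1 cells LOXL4 was about 10 times as high as in shNC-1 cells, PLOD2 and PLOD3 were lower, and the libraries of the other 5 tested members overlapped between the groups. Of the 10 genes 8 could be tested. Of these, 3 passed the threshold, 1 higher and 2 lower, where 24.8% of all tested genes passed. The same 3 were the ones whose library values did not overlap between the groups, which held for 43.9% of all tested genes (25.6% with all shDLGAP5-1 libraries above and 18.3% with all below). LOXL1 and LOXL3 stayed under 1 FPKM in every library and were not tested.

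**Figure D1:**
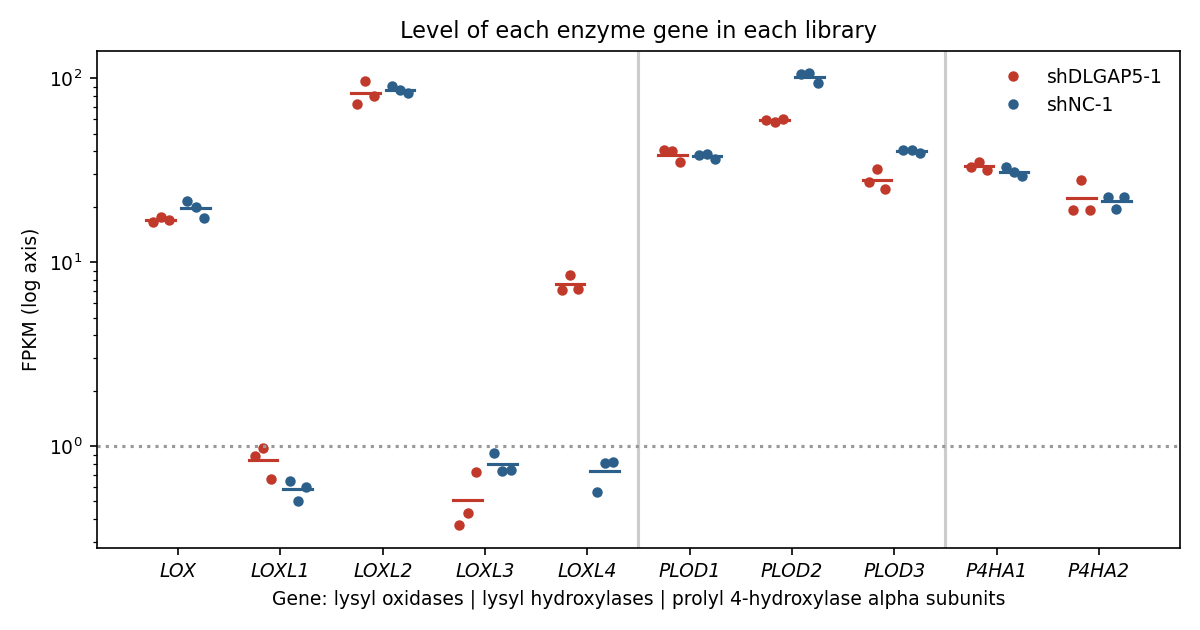
Level of each of the 10 genes in FPKM on a log axis. Points are single libraries, shDLGAP5-1 in red and shNC-1 in blue, horizontal bars are means of 3, and the dotted line marks 1 FPKM. LOXL4 is at 7.06 to 8.57 FPKM in shDLGAP5-1 and under the 1 FPKM line in shNC-1, and LOXL2 and PLOD2 are the most abundant members.

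LOXL4 encodes a lysyl oxidase with scavenger receptor domains, like those of LOXL2 and LOXL3. Its level was 7.06, 8.57 and 7.14 FPKM in shDLGAP5-1 replicates 1 to 3, against 0.562, 0.811 and 0.818 FPKM in shNC-1 replicates 1 to 3. Every shDLGAP5-1 library lay far above every shNC-1 library. The means were 7.59 ± 0.849 FPKM in shDLGAP5-1 and 0.730 ± 0.146 FPKM in shNC-1 (SD, n = 3 each), a ratio of 10.4. On the scale of log2(FPKM + 1) the difference was 2.31 (standard error 0.13), which understates a gene near 1 FPKM, and with a pseudocount of 0.1 it was 3.22. This log2 fold change was the 14th highest of 12714 tested genes. LOXL4 was tested only because its shDLGAP5-1 libraries passed 1 FPKM, so its place among the tested genes is not support for the difference. By the longest transcript, its levels stood for roughly 353 to 477 fragments per shDLGAP5-1 library and 44 to 82 per shNC-1 library. With shDLGAP5-1 replicate 3 left out because of its leukocyte transcripts, the log2 fold change was 2.35. The gene (ENSG00000138131) occupies chromosome 10 from 98247690 to 98268194 (minus strand). An antisense gene, AL139241.1, shares 152 exon bases with it and did not exceed 0.0620 FPKM in any library. 4 other genes within 500 kb were tested, with log2 fold changes of -0.09 to 0.69. Of them 1 was called higher and 0 lower, where 15.3% and 9.52% of all tested genes were.

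LOX, the founding member, was at 16.5, 17.67 and 16.95 FPKM in shDLGAP5-1 replicates 1 to 3, against 21.5, 19.9 and 17.4 FPKM in shNC-1 replicates 1 to 3. The groups overlapped, with shNC-1 replicate 3 at 17.41 FPKM, under shDLGAP5-1 replicate 2. Its log2 fold change was -0.19 (standard error 0.11), and in none of the 14 alternatives did it pass the threshold. LOX (ENSG00000113083) occupies chromosome 5 from 122063195 to 122078360 (minus strand), and shares 138 exon bases with SRFBP1 on the other strand, which was at 4.60 to 6.11 FPKM in shDLGAP5-1 and 6.82 to 8.20 FPKM in shNC-1.

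LOXL2, which cross-links collagen IV among other substrates, carried most of the lysyl oxidase transcripts in both groups. It stood at 72.7, 97.1 and 80.1 FPKM in shDLGAP5-1 replicates 1 to 3, against 90.9, 85.8 and 83.2 FPKM in shNC-1 replicates 1 to 3. The groups overlapped, and both the highest and the lowest library belonged to shDLGAP5-1. The log2 fold change was -0.07 (standard error 0.13), and it turned to 0.03 without shDLGAP5-1 replicate 1. LOXL2 (ENSG00000134013) occupies chromosome 8 from 23297189 to 23425328 (minus strand), and shares 120 exon bases with ENTPD4 on the same strand, so reads of the pair can be confused there.

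LOXL1, best known for elastic fibres, was at 0.881, 0.975 and 0.666 FPKM in shDLGAP5-1 replicates 1 to 3, against 0.648, 0.500 and 0.596 FPKM in shNC-1 replicates 1 to 3. LOXL3 was at 0.371, 0.433 and 0.722 FPKM in shDLGAP5-1 replicates 1 to 3, against 0.912, 0.733 and 0.740 FPKM in shNC-1 replicates 1 to 3. LOXL1 lay higher and LOXL3 lower in every shDLGAP5-1 library, by narrow margins: 0.666 FPKM against 0.648 for LOXL1 and 0.722 against 0.733 for LOXL3. By the longest transcript these levels stood for roughly 34 to 41 fragments of LOXL1 and 18 to 71 of LOXL3 per library. LOXL3 also shares 625 exon bases with HTRA2 and 216 with DOK1 on the other strand, which were at 13.2 to 31.8 FPKM, and without strand information their reads cannot be told apart. Of the 50-base words of the longest LOXL3 transcript, 18.7% also occurred in transcripts of other genes. LOXL1 (ENSG00000129038) lies on chromosome 15 from 73925989 to 73952137 and LOXL3 (ENSG00000115318) on chromosome 2 from 74532258 to 74555690.

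PLOD2 was the most abundant of the 10 genes in shNC-1 and lower in every shDLGAP5-1 library. It stood at 59.0, 57.6 and 60.4 FPKM in shDLGAP5-1 replicates 1 to 3, against 106.0, 106.4 and 93.9 FPKM in shNC-1 replicates 1 to 3. The shDLGAP5-1 libraries lay close together and far under the lowest shNC-1 library. The means were 59.0 ± 1.38 FPKM in shDLGAP5-1 and 102.1 ± 7.12 FPKM in shNC-1 (SD, n = 3 each), a change of -42.2% and of -0.78 in log2 (standard error 0.10). It passed the threshold in all 14 alternatives, with log2 fold changes of -0.90 to -0.72, and was at -0.80 without shDLGAP5-1 replicate 3. PLOD2 (ENSG00000152952) occupies chromosome 3 from 146069440 to 146163653 (minus strand) and shares no exon bases with another gene. Only 2 other genes within 500 kb were tested, and both were called higher in shDLGAP5-1, with log2 fold changes of 0.78 and 1.04. Of all tested genes 15.3% were called higher, and a relation of these 2 genes to PLOD2 was not tested.

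PLOD3 was at 27.2, 32.1 and 25.0 FPKM in shDLGAP5-1 replicates 1 to 3, against 40.7, 41.0 and 39.4 FPKM in shNC-1 replicates 1 to 3. All shDLGAP5-1 libraries lay under all shNC-1 libraries. The means were 28.1 ± 3.64 FPKM in shDLGAP5-1 and 40.4 ± 0.864 FPKM in shNC-1 (SD, n = 3 each), a change of -30.3% and of -0.51 in log2 (standard error 0.12). The direction was the same in all 14 alternatives, with a log2 fold change of -0.44 without shDLGAP5-1 replicate 3. Those alternatives that change the filter or add the replicate number as a block cannot move this estimate. The gene did not pass the threshold without shNC-1 replicate 1, 2 or 3 (log2 fold changes of -0.51, -0.50 and -0.53). PLOD3 (ENSG00000106397) occupies chromosome 7 from 101205977 to 101218420 (minus strand). It shares 429 exon bases with ZNHIT1 on the other strand, which was at 39.3 to 50.3 FPKM in shDLGAP5-1 and 32.5 to 45.5 FPKM in shNC-1. Of the 2871 50-base words of the longest PLOD3 transcript, 0 occurred in transcripts of other genes.

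PLOD1, the third lysyl hydroxylase, which acts on the helical part of collagen, was at 40.6, 40.0 and 34.9 FPKM in shDLGAP5-1 replicates 1 to 3, against 38.5, 38.6 and 36.2 FPKM in shNC-1 replicates 1 to 3. The groups overlapped, and the log2 fold change was 0.02 (standard error 0.10), with a sign that depended on the scaling. PLOD1 (ENSG00000083444) lies on the plus strand of chromosome 1 from 11934205 to 11975538. As ratios within a library, PLOD2 over PLOD1 was 1.45, 1.44 and 1.73 in shDLGAP5-1 replicates 1 to 3, against 2.75, 2.76 and 2.59 in shNC-1 replicates 1 to 3. PLOD3 over PLOD1 was 0.670, 0.803 and 0.718 in shDLGAP5-1 replicates 1 to 3, against 1.06, 1.06 and 1.09 in shNC-1 replicates 1 to 3. Such ratios do not change when a library is multiplied by 1 factor, and neither overlapped between the groups. The groups did overlap in PLOD2 over PLOD3, which was 1.794 to 2.414 in shDLGAP5-1 and 2.385 to 2.603 in shNC-1.

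Neither prolyl 4-hydroxylase alpha subunit passed the threshold. P4HA1 was at 32.7, 35.1 and 31.8 FPKM in shDLGAP5-1 replicates 1 to 3, against 32.9, 31.0 and 29.6 FPKM in shNC-1 replicates 1 to 3. P4HA2 was at 19.3, 28.1 and 19.2 FPKM in shDLGAP5-1 replicates 1 to 3, against 22.7, 19.5 and 22.5 FPKM in shNC-1 replicates 1 to 3. Both genes overlapped between the groups, and shDLGAP5-1 replicate 2 was the highest library of each. The log2 fold changes were 0.09 (standard error 0.10) for P4HA1 and 0.02 (standard error 0.17) for P4HA2, and the sign of each turned negative with libraries scaled to the same total or by median ratio. P4HA1 (ENSG00000122884) lies on chromosome 10 from 73007217 to 73096974, the chromosome of LOXL4, and P4HA2 (ENSG00000072682) on chromosome 5 from 132191838 to 132295315, the chromosome of LOX.

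**Figure D2:**
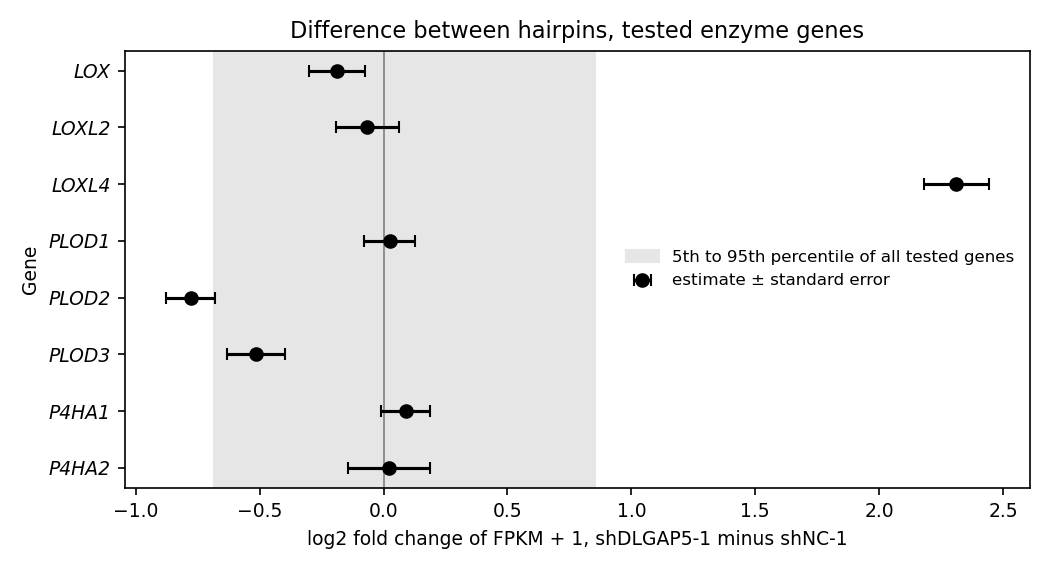
Log2 fold change of FPKM + 1, shDLGAP5-1 minus shNC-1, of the 8 tested genes, with standard errors from the fit over 3 libraries a group. The grey band spans the 5th to the 95th percentile of 12714 tested genes (-0.69 to 0.85). LOXL4 at 2.31 and PLOD2 at -0.78 lie outside it and the other 6 inside.

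Within a group the levels, which are per length, spanned from under 1 FPKM to 106.4 FPKM. In shDLGAP5-1 the order was LOXL2, PLOD2, PLOD1, P4HA1, PLOD3, P4HA2, LOX, LOXL4, LOXL1 and LOXL3. There, library ranges overlapped between neighbours from PLOD1 to P4HA2 and between LOXL1 and LOXL3. In shNC-1 the order was PLOD2, LOXL2, PLOD3, PLOD1, P4HA1, P4HA2, LOX, LOXL3, LOXL4 and LOXL1. There, ranges overlapped between P4HA2 and LOX, LOXL3 and LOXL4, and LOXL4 and LOXL1. PLOD2 and LOXL2 thus stood in opposite order in the groups, and LOXL4 was apart from LOXL1 and LOXL3 in shDLGAP5-1 but not in shNC-1.

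Summed over its 3 genes, the lysyl hydroxylase family stood at 126.8, 129.8 and 120.3 FPKM in shDLGAP5-1 replicates 1 to 3, against 185.2, 186 and 169.5 FPKM in shNC-1 replicates 1 to 3, a ratio of means of 0.697. PLOD2 made up 47.1% ± 2.93 of that sum in shDLGAP5-1 and 56.6% ± 1.06 in shNC-1 (SD, n = 3 each). PLOD1 made up 30.6% ± 1.52 in shDLGAP5-1 and 21.0% ± 0.354 in shNC-1, while the share of PLOD3 was 22.3% ± 2.12 in shDLGAP5-1 and 22.4% ± 0.705 in shNC-1. The lysyl oxidases summed to 97.5, 124.8 and 105.6 FPKM in shDLGAP5-1 replicates 1 to 3, against 114.5, 107.8 and 102.7 FPKM in shNC-1 replicates 1 to 3, a ratio of 1.01 with overlapping groups. LOXL2 made up 76.1% ± 1.65 of that sum in shDLGAP5-1 and 79.999% ± 0.837 in shNC-1, and LOXL4 6.96% ± 0.248 in shDLGAP5-1 and 0.680% ± 0.165 in shNC-1. So the LOXL4 difference, the largest of the 10 as a ratio, concerned a small part of the family's transcripts. The P4HA2 to P4HA1 ratio was 0.665 ± 0.118 in shDLGAP5-1 and 0.694 ± 0.0651 in shNC-1, with overlapping groups.

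**Figure D3:**
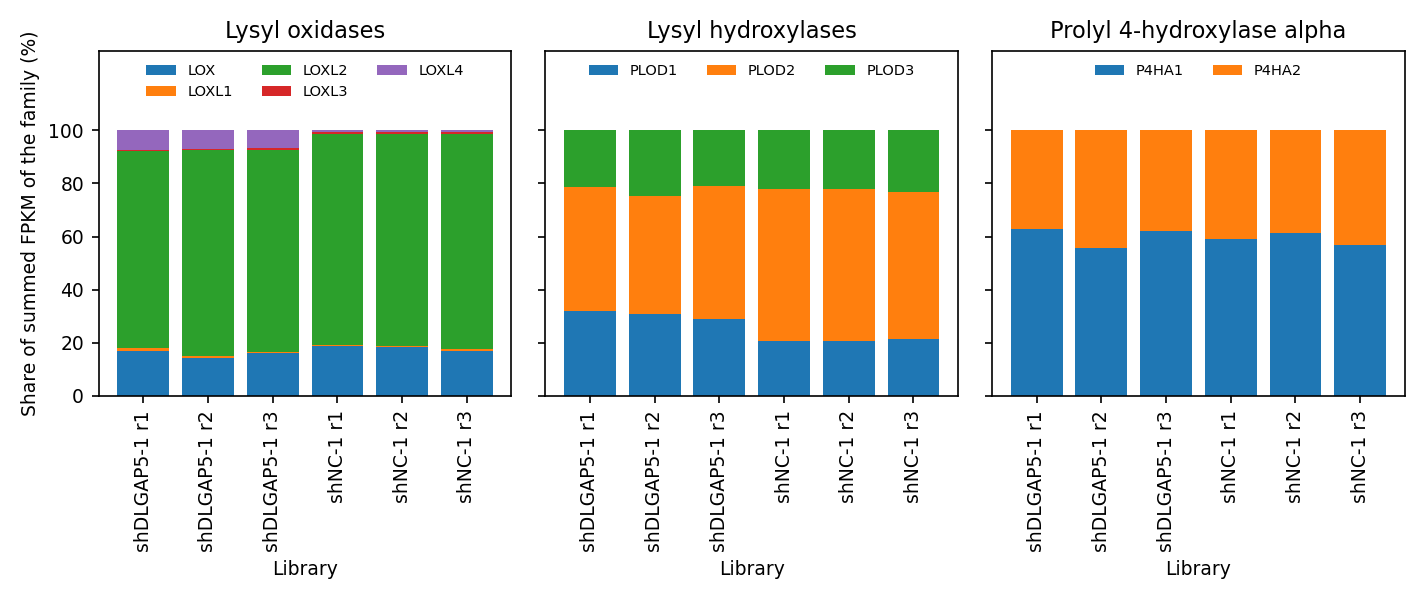
Share of each gene in the summed FPKM of its family, in percent, for each library, shDLGAP5-1 replicates 1 to 3 left and shNC-1 replicates 1 to 3 right of each panel. The LOXL4 band is 6.77% to 7.24% in shDLGAP5-1 and 0.491% to 0.796% in shNC-1, and PLOD1 takes a larger share of the lysyl hydroxylases in shDLGAP5-1.

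The partners of these enzymes in the endoplasmic reticulum showed few differences. Of 14 tested genes for hydroxylase partners and collagen chaperones, 1 rose and 0 fell, or 7.14%, where 24.8% of all tested genes passed. The list had a median log2 fold change of 0.17, where that of all tested genes was 0.03. The gene was FKBP7, an endoplasmic reticulum prolyl isomerase, at 5.25, 5.30 and 5.43 FPKM in shDLGAP5-1 replicates 1 to 3, against 2.85, 1.39 and 2.38 FPKM in shNC-1 replicates 1 to 3 (log2 fold change 1.01, standard error 0.19, limma adjusted p = 0.00992). Without shDLGAP5-1 replicate 3 the count of rises was 3. The log2 fold change was -0.14 for P4HB, the beta subunit, and -0.48 for SERPINH1, the collagen chaperone HSP47; neither passed (limma adjusted p = 0.512 and 0.143). Of 14 genes of procollagen export from the endoplasmic reticulum 0 passed in either direction by limma (1, CREB3L2, at an unadjusted p under 0.05, named after its value was seen), with a median of -0.02. Without shDLGAP5-1 replicate 3, or without shNC-1 replicate 2, 1 gene of export was called lower.

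Among proteins that process propeptides, BMP1, the protease that cleaves procollagen and activates pro-LOX, was at 3.75, 4.64 and 5.91 FPKM in shDLGAP5-1 replicates 1 to 3, against 2.91, 2.92 and 2.58 FPKM in shNC-1 replicates 1 to 3 (log2 fold change 0.58, limma adjusted p = 0.0362). That call was lost in 5 of 6 fits without 1 library, those without shDLGAP5-1 replicate 2 or 3 or shNC-1 replicate 1, 2 or 3 (limma adjusted p of 0.0579 to 0.102), with same-total scaling (0.107) and with no minimum level (0.102). FN1, fibronectin, a matrix protein that binds pro-LOX and BMP1, averaged 454.9 ± 60.7 FPKM in shDLGAP5-1 and 233.8 ± 10.6 FPKM in shNC-1 (SD, n = 3 each; limma adjusted p = 0.00348). Of 6 tested genes of this list, 2 rose and 0 fell, or 33.3%, where 24.8% of all tested genes passed.

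Substrates of the enzymes moved in both directions. Of 3 tested fibrillar collagen genes 0 passed by limma (1, COL5A2, at an unadjusted p under 0.05), and the main fibroblast collagens were low, with COL1A1 at 1.85 to 2.61 FPKM in shDLGAP5-1 and 0.957 to 2.53 FPKM in shNC-1. COL5A2 had a log2 fold change of -0.35 (limma adjusted p = 0.0676), and 1 gene of the list was called lower with median-ratio scaling or without shDLGAP5-1 replicate 2. Of 13 other collagen genes 4 rose and 2 fell, or 46.2%, where 24.8% of all tested genes passed. Their median log2 fold change was 0.18, and 0.07 with equal library sums or 0.05 after median-ratio scaling. COL7A1, of anchoring fibrils, averaged 41.96 ± 6.27 FPKM in shDLGAP5-1 and 21.95 ± 2.11 FPKM in shNC-1 (SD, n = 3 each; limma adjusted p = 0.00578), and COL6A2 rose by 0.81 on the log2 scale (limma adjusted p = 0.00659). COL17A1, the transmembrane collagen of hemidesmosomes, fell to 5.22 ± 0.800 FPKM in shDLGAP5-1, against 16.0 ± 2.13 FPKM in shNC-1 (log2 fold change -1.45, limma adjusted p = 0.00133), and COL12A1, a collagen associated with fibrils, had a log2 fold change of -0.87 (limma adjusted p = 0.00707). The count of rises was 2 without any 1 of the shNC-1 replicates 1, 2 or 3.

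The tested genes of elastic fibres, the other substrate of lysyl oxidases, were mostly higher. Elastin itself (ELN) was listed at 0 in all 6 libraries, and only 9 of the 17 genes on the list were tested. Of 9 tested genes 5 rose and 1 fell, or 66.7%, where 24.8% of all tested genes passed, and the median log2 fold change was 0.71, where that of all tested genes was 0.03. LTBP3, a binding protein of latent TGF-beta, was at 73.0, 82.2 and 53.0 FPKM in shDLGAP5-1 replicates 1 to 3, against 19.2, 23.2 and 20.6 FPKM in shNC-1 replicates 1 to 3 (log2 fold change 1.66, limma adjusted p = 0.00141). MFAP2, a microfibril protein, averaged 4.19 ± 0.801 FPKM in shDLGAP5-1 and 0.847 ± 0.0641 FPKM in shNC-1 (SD, n = 3 each; limma adjusted p = 0.00115), and like LOXL4 it was tested only through its shDLGAP5-1 libraries. LTBP4 rose by 1.18 on the log2 scale (limma adjusted p = 0.00515) and EFEMP1, a fibulin, by 0.79 (limma adjusted p = 0.00544). The gene that fell was FBN1, fibrillin 1, named after its value was seen, at -0.71 (limma adjusted p = 0.0234). Its call was lost without shDLGAP5-1 replicate 1 or 2 or any 1 of the shNC-1 replicates 1, 2 or 3. The median of the list was 0.79 without shDLGAP5-1 replicate 3, and 0.11 when genes under the 1 FPKM minimum were kept.

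**Figure D4:**
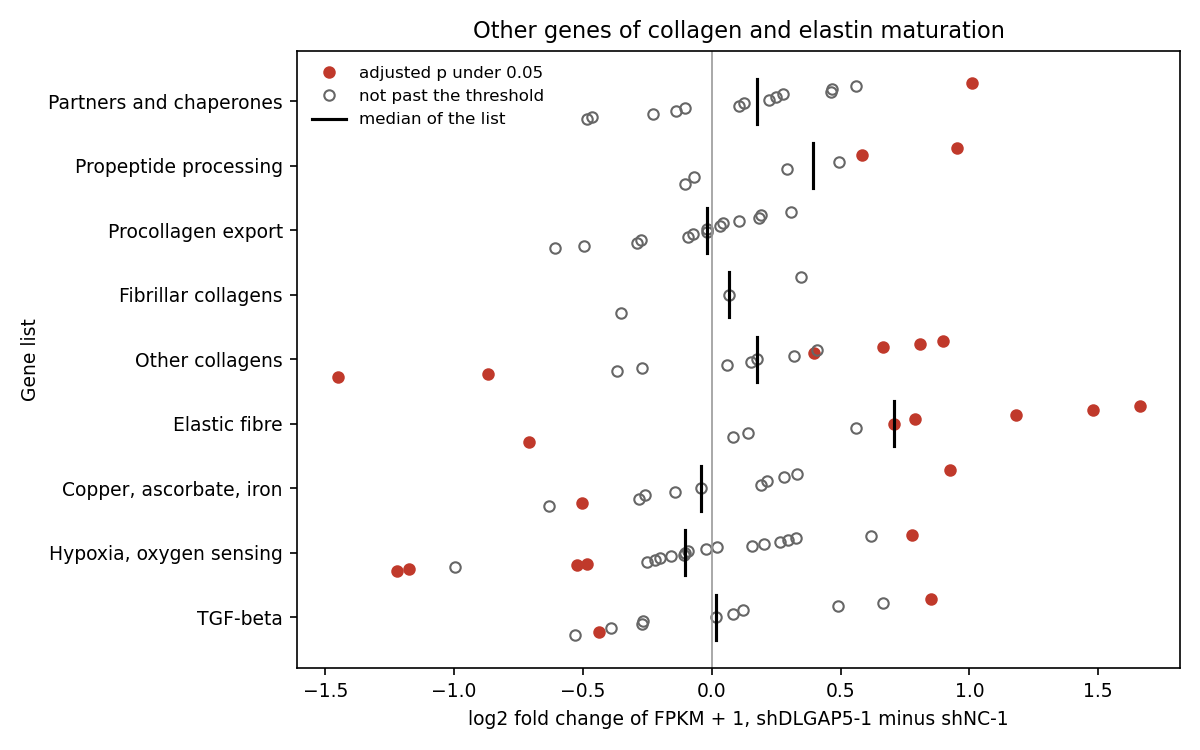
Log2 fold change of FPKM + 1, shDLGAP5-1 minus shNC-1, of the tested genes of 9 lists, 1 point a gene. Filled points passed a limma adjusted p of 0.05 and black bars are list medians. Elastic fibre genes have the highest median (0.71), and no gene of procollagen export or of the fibrillar collagens passed.

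Genes that supply the enzymes with metal and reductant showed 1 rise and 1 fall among 11 tested, or 18.2%, where 24.8% of all tested genes passed. SLC31A1, the copper importer of the cell surface, was at 9.67, 11.9 and 12.25 FPKM in shDLGAP5-1 replicates 1 to 3, against 16.5, 16.3 and 16.1 FPKM in shNC-1 replicates 1 to 3 (log2 fold change -0.50, limma adjusted p = 0.0233). That call was lost without shNC-1 replicate 1, 2 or 3 (limma adjusted p = 0.0838, 0.0874 and 0.0627). GLRX, glutaredoxin, rose by 0.93 on the log2 scale (limma adjusted p = 0.0117; 0.0501 without shNC-1 replicate 2), and the list had 2 rises without shDLGAP5-1 replicate 1. ATP7A, which loads copper onto secreted enzymes such as LOX, had a log2 fold change of 0.28 and did not pass (limma adjusted p = 0.140).

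Of 21 tested genes of hypoxia and oxygen sensing 1 rose and 4 fell, where 15.3% of all tested genes were called higher and 9.52% lower. In both directions together 23.8% of the list passed, where 24.8% of all tested genes did. The median log2 fold change was -0.10, and -0.02 without shDLGAP5-1 replicate 1 or -0.22 after median-ratio scaling. HIF1A, the hypoxia-inducible factor subunit, did not pass (log2 -0.02, limma adjusted p = 0.929), and EPAS1, its relative HIF-2 alpha, averaged 24.5 ± 3.30 FPKM in shDLGAP5-1 and 13.9 ± 1.82 FPKM in shNC-1 (SD, n = 3 each; limma adjusted p = 0.0109). ANGPTL4, a secreted lipase inhibitor, fell by 1.18 on the log2 scale (limma adjusted p = 0.00614), PFKFB3, a regulator of glycolysis, by 1.22 (limma adjusted p = 0.00837) and SLC2A1, the glucose transporter GLUT1, by 0.52 (limma adjusted p = 0.0117). BNIP3, named after its value was seen, was the other gene that fell, with a log2 fold change of -0.48 (limma adjusted p = 0.0156). VEGFA, also on this list, had a log2 fold change of -0.20 and did not pass (limma adjusted p = 0.219). The count of falls was 2 without shNC-1 replicate 1 and 2 without shNC-1 replicate 2, and the SLC2A1 call was lost in both. The count of rises was 2 without shDLGAP5-1 replicate 1 and 2 without shNC-1 replicate 2. The relation of these genes to LOX, PLOD2 and P4HA1 was not tested.

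Of 11 tested genes of the TGF-beta pathway, a known inducer of matrix genes, 1 rose, where 15.3% of all tested genes did. PMEPA1, a feedback inhibitor, averaged 10.3 ± 1.498 FPKM in shDLGAP5-1 and 5.25 ± 0.284 FPKM in shNC-1 (SD, n = 3 each; limma adjusted p = 0.00611). The list had 2 rises without shDLGAP5-1 replicate 1 and 2 without shDLGAP5-1 replicate 3. Of 10 fibroblast markers, whose cells make much of the collagen of tissues, the summed level was 3.03 to 3.19 FPKM in shDLGAP5-1 and 1.53 to 6.92 FPKM in shNC-1. The highest sum was that of shNC-1 replicate 1, where COL1A2 was at 1.66 FPKM and DCN at 1.52 FPKM; neither exceeded 0.0629 FPKM in any other library. Endothelial markers summed to at most 0.408 FPKM outside shDLGAP5-1 replicate 3, where PECAM1, which blood cells also express, brought them to 8.49 FPKM.

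**Figure D5:**
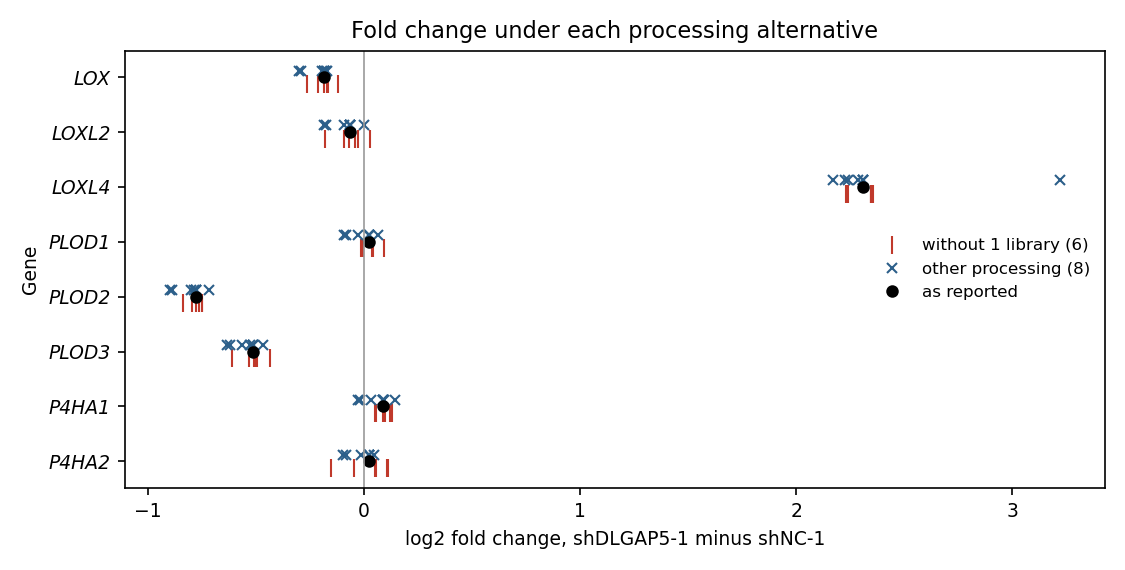
Log2 fold change of each tested gene as reported (black) and under 14 alternatives, 8 of processing (crosses) and 6 without 1 library (bars). LOXL4 stayed between 2.17 and 3.22, PLOD2 between -0.90 and -0.72 and PLOD3 between -0.63 and -0.44, while PLOD1, P4HA1, P4HA2 and LOXL2 crossed 0.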

How the data were processed

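Messenger RNA libraries of T24 cells, 3 per hairpin, were given as 1 table of 58825 genes. The deposited values were read as FPKM, normalized by the authors per kilobase and per library depth; the header names no unit, so this was inferred from the values. The aligner, the counting method and strandedness: not given in the sources used here. The shNC-1 columns carry NC in their names; the other 3, named by a construct number, were taken as shDLGAP5-1, and DLGAP5 was given as a check of the labels.

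The 12714 genes that reached 1 FPKM in 3 or more libraries entered a test on log2(FPKM + 1) with limma 3.58.1 in R 4.3.3, with group as the only term, an intensity trend and Benjamini-Hochberg adjustment at 0.05 over all tested genes. FPKM hold no counts, so no count model was used. The fit was tested on simulated data. Fragments per gene were approximated from the value of 1 fragment in single-exon genes and cover counting error only. Coordinates are those of the deposited table (GRCh38); 99.5% of its gene IDs were found in GENCODE 29. Promoters are from RefSeq. The 10 genes, the 9 companion lists and the 4 marker lists were chosen with earlier results of these data known. Named are all 10 enzymes and, from each companion list, up to 4 called genes with the smallest p; any other gene was named after its value was seen. Falls in the TGF-beta list are not reported here. Alternatives were another pseudocount, other filters, 3 scalings, a correction for transcript length, the replicate number as block, a stricter threshold and leaving out each library.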

Additional observations from a re-analysis of the deposited data

How the results depend on the processing

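The log2 fold changes of LOXL4 (2.17 to 3.22), PLOD2 (-0.90 to -0.72) and PLOD3 (-0.63 to -0.44) kept their direction in 14 alternatives; leaving out 1 library gave 2.23 to 2.35, -0.84 to -0.75 and -0.61 to -0.44. LOXL4 and PLOD2 kept their call in all 14 and PLOD3 in 10. The genes were chosen with these fold changes in view, so such counts are a description and not support for a difference. A change of filter or the replicate block cannot move a fold change, only its standard error and call. Small differences changed sign, and the cause was not tested. PLOD1 was -0.0845 when libraries had equal sums, -0.0951 after median-ratio scaling and -0.0274 without the length trend, and -0.0146 to 0.0923 without 1 library. P4HA1 was -0.0186 with equal sums and -0.0293 after median-ratio scaling. P4HA2 was -0.0853 with equal sums, -0.096 after median-ratio scaling and -0.0158 without the length trend, and -0.1526 to 0.1087 without 1 library. LOXL2 was -0.1797 to 0.0263 without 1 library.

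Of all tested genes, 3155 passed as reported. The count was 2071 with no filter, 1120 at an adjusted p of 0.01 and 1335 to 3141 without 1 library. At an adjusted p of 0.01, 2 of the 10 enzymes passed in place of 3. With the replicate number as a block the count over all genes was 1464. Under the block, too, 2 of the 10 enzymes passed in place of 3, PLOD3 (log2 fold change -0.51) being lost. The other collagens had 2 rises under the block. The labels do not say whether these numbers mark a shared batch. Deviations of same-numbered libraries from their group means correlated at -0.155, 0.021 and -0.157. With 3 libraries a group these values cannot decide it. The block also ended the calls of BMP1, SLC31A1 and SLC2A1 (limma adjusted p = 0.092, 0.0814 and 0.0602). LOXL1 and LOXL3 were left out by the minimum of 1 FPKM; with no filter their log2 fold changes were 0.22 and -0.26, and neither passed. After median-ratio scaling the list medians were 0.06 for partners and chaperones, 0.28 for propeptide processing and -0.14 for procollagen export. Without shDLGAP5-1 replicate 1 the median of the copper, ascorbate and iron list was 0.13, in place of -0.04.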
